A study of Mus musculus with 4 samples.

Results

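The genes described here are the hypoxia-inducible factor (HIF) subunits Hif1a, Epas1, Hif3a and Arnt, the prolyl hydroxylases Egln1, Egln2 and Egln3, and Vhl, 8 of the 21046 genes in the table, chosen by symbol. HIF is the transcription factor by which cells answer a lack of oxygen. It pairs an alpha subunit (Hif1a, Epas1 or Hif3a) with the stable partner Arnt. When oxygen is present, the EGLN enzymes hydroxylate the alpha subunit, Vhl binds the hydroxylated protein, and it is degraded. When oxygen is low the alpha subunit accumulates and the dimer binds hypoxia response elements in target genes, among them Egln1 and Egln3 themselves. Because this control acts on the protein, RNA levels of the subunits do not report HIF activity. In kidney, Hif1a protein is known mainly from tubule cells and Epas1 protein from endothelial and interstitial cells.

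Nuclear RNA of mouse kidney cortex was counted by droplet-based single-nucleus sequencing, in which each RNA molecule carries a unique molecular identifier (UMI). Each of 4 genotypes on C57BL/6J was represented by 1 library: Klf4deltaECNos3-/-, Klf4deltaEC, Nos3-/- and the control Klf4flox/flox. Klf4 is a zinc-finger transcription factor, Nos3 is endothelial nitric oxide synthase, and the series title asks how lowering endothelial Klf4 acts with and without Nos3. The sources used here do not give the driver of the endothelial deletion, the ages or sexes, or whether a library holds 1 mouse or several. Values are mean UMIs per 10000 UMIs in each of 23 clusters and 4 libraries. With 1 library per genotype there is no replicate, no test and no p-value. Bracketed ranges are 95% counting intervals that cover counting error only, not differences between mice, dissections or preparations.

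Inferred nuclei numbered 5491 in the library labelled Klf4deltaECNos3-/-, 6883 in Klf4deltaEC, 7004 in Nos3-/- and 6766 in Klf4flox/flox. The library labelled Nos3-/- was the shallowest by the median of its cluster medians, weighted by nuclei. This was 2267 UMIs per nucleus, against 4312 in Klf4deltaECNos3-/-, 3435 in Klf4deltaEC and 3773 in Klf4flox/flox. In endothelial cell-like nuclei Klf4 stood at 0.824, 0.779, 0.445 and 0.621 per 10000 in Klf4deltaECNos3-/-, Klf4deltaEC, Nos3-/- and Klf4flox/flox. Nos3 stood at 2.07, 0.930, 1.52 and 1.26 in the same order. Neither gene stood lower in the libraries labelled as lacking it, and which part of each gene was removed is not known here. Genotypes below are therefore those on the labels. The 20 largest clusters (0 to 19) carry the results; clusters 20 to 22 held 228, 217 and 58 nuclei over all libraries. Cluster 10 had all 14 endothelial markers in every library and led with Flt1, and cluster 8 had all 8 principal cell markers in every library, with Fxyd4 and Aqp2 among its leading genes. Clusters 7, 12 and 17 stayed unnamed. Cluster 17 carried principal cell and connecting tubule markers alike, and cluster 12 was the shallowest of the large clusters, with 782 to 1016 UMIs per nucleus.

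All 8 genes are protein-coding in the GENCODE annotation of mm10. On the plus strand are Hif1a (chromosome 12, 73901375 to 73947530), Epas1 (chromosome 17, 86753700 to 86833410), Arnt (chromosome 3, 95434388 to 95497240) and Vhl (chromosome 6, 113623959 to 113631633). On the minus strand are Hif3a (chromosome 7, 17031507 to 17062427), Egln1 (chromosome 8, 124908587 to 124949324), Egln2 (chromosome 7, 27158658 to 27166802) and Egln3 (chromosome 12, 54178981 to 54203860). Hif1a overlaps Gm15283 on the other strand, whose level reached 1.18 per 10000 in its highest cluster. The sources used here do not say whether counting used strand, so reads of this pair may be exchanged.

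The promoters of Hif1a, Egln1 and Egln3 are shown because the levels of these genes differed most between libraries in the main clusters below. Each line holds the 250 bases before the RefSeq start in GRCm38.p6, 5′ to 3′ on the gene's strand. The windows are chr12:73907617-73907866 on the plus strand for Hif1a, chr8:124949255-124949504 on the minus strand for Egln1 and chr12:54203875-54204124 on the minus strand for Egln3. Capitals mark the core of the hypoxia response element, ACGTG or GCGTG, on either strand.
Hif1a: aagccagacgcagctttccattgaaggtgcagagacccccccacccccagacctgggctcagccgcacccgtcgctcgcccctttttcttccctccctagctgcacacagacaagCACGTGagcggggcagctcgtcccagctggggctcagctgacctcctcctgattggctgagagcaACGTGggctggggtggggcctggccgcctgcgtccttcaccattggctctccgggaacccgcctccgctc
Egln1: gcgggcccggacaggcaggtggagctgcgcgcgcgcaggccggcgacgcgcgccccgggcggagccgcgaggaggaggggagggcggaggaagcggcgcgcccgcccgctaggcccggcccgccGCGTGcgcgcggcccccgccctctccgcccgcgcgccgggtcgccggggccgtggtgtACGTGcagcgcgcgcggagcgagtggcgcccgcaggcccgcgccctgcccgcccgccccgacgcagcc
Egln3: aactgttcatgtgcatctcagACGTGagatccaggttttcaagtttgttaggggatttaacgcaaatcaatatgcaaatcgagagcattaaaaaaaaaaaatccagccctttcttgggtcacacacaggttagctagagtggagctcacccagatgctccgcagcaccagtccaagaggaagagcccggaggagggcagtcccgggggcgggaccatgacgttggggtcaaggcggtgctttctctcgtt
Hif1a had 3 matches to ACGTG, 2 of which overlap on opposite strands. Egln1 had 1 match to each motif, and Egln3 had 1 match to ACGTG. Of 32851 windows of this length in RefSeq, 38.6% held ACGTG or GCGTG. Of the 8 windows found for 7 of the genes, 7 held a match and that of Vhl did not. A match is a run of letters and not evidence of binding.

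The alpha subunits were highest in different cell types. Epas1, which encodes HIF-2 alpha, was highest in endothelial cell-like nuclei and next highest in the stromal cell-like cluster 13 in each of the 4 libraries. Hif1a was highest in the principal cell-like cluster 8 or in cluster 17, at only 1.06 times the next cluster in the library labelled Nos3-/-. Arnt, their shared partner, was spread evenly.

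Epas1 reached 3.60 (2.99 to 4.30), 4.98 (4.32 to 5.71), 3.29 (2.76 to 3.90) and 4.65 (4.02 to 5.35) per 10000 in endothelial cell-like nuclei of the libraries labelled Klf4deltaECNos3-/-, Klf4deltaEC, Nos3-/- and Klf4flox/flox. Both libraries labelled Nos3-/- were below both others. The 2 pairs of libraries did not overlap for 31.8% of 5043 genes in these nuclei. In the stromal cell-like cluster the same libraries had 1.42, 1.88, 2.31 and 2.78 per 10000, with Klf4flox/flox the highest and Klf4deltaECNos3-/- the lowest. The endothelial level was 2.54, 2.65, 1.42 and 1.67 times the stromal level in that order. Intercalated cell-like cluster 14 came next, with 0.726, 0.853, 0.848 and 0.871, values that lay close together. Cluster 16, the other intercalated cell-like cluster, had 0.544, 0.356, 0.722 and 0.321, with both libraries labelled Nos3-/- above both others. The share of all genes with such a separation in cluster 16 is not given here. The ranges over libraries of clusters 10, 13, 14 and 16 did not overlap each other, and from cluster 16 down neighbours in the order did. In the 5 proximal tubule-like clusters Epas1 had a median of 0.222 over 20 columns, and in the principal cell-like cluster its highest level was 0.133.

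Levels outside the endothelium can be set beside those of endothelial markers there. The summed endothelial markers of the intercalated cell-like clusters stood at 0.275% to 1.23% of their endothelial level, whereas Epas1 stood there at 6.90% to 25.7% of its own. Over the 76 other columns, Epas1 exceeded the marker share in 73. Egln3 exceeded it in 68. The markers were chosen as endothelial, so any gene less confined to the endothelium exceeds their share. The same count over all genes is not given here, and nothing is concluded from these counts. In the stromal cell-like cluster endothelial markers were higher, at 10.1% to 18.3% of their endothelial level, beside Epas1 at 37.8% to 70.3%. The part of free endothelial RNA in these levels was not tested.

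Hif1a in the principal cell-like cluster had 2.38 (2.08 to 2.71), 3.12 (2.77 to 3.51), 0.779 (0.492 to 1.17) and 2.71 (2.38 to 3.07) per 10000 in Klf4deltaECNos3-/-, Klf4deltaEC, Nos3-/- and Klf4flox/flox. The library labelled Nos3-/- was apart from the other 3, below all of them. Cluster 17 had 3.10, 2.01, 1.07 and 2.15 in the same order, again lowest in the library labelled Nos3-/- and highest in Klf4deltaECNos3-/-. The thin limb-like cluster 18 followed with 0.840, 2.49, 0.631 and 0.929, and there the library labelled Klf4deltaEC stood above the rest. Connecting tubule-like cluster 11 had 0.479 to 1.02 and intercalated cell-like cluster 14 had 0.588 to 1.01. In the library labelled Nos3-/- cluster 14, at 1.01, stood above the principal cell-like cluster and just below cluster 17. These first 5 clusters overlapped with their neighbours in the order. The proximal tubule-like clusters had a median of 0.409 over 20 columns, with a range of 0.264 to 0.526, and podocyte-like nuclei were lowest, with a median of 0.341.

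**Figure D1:**
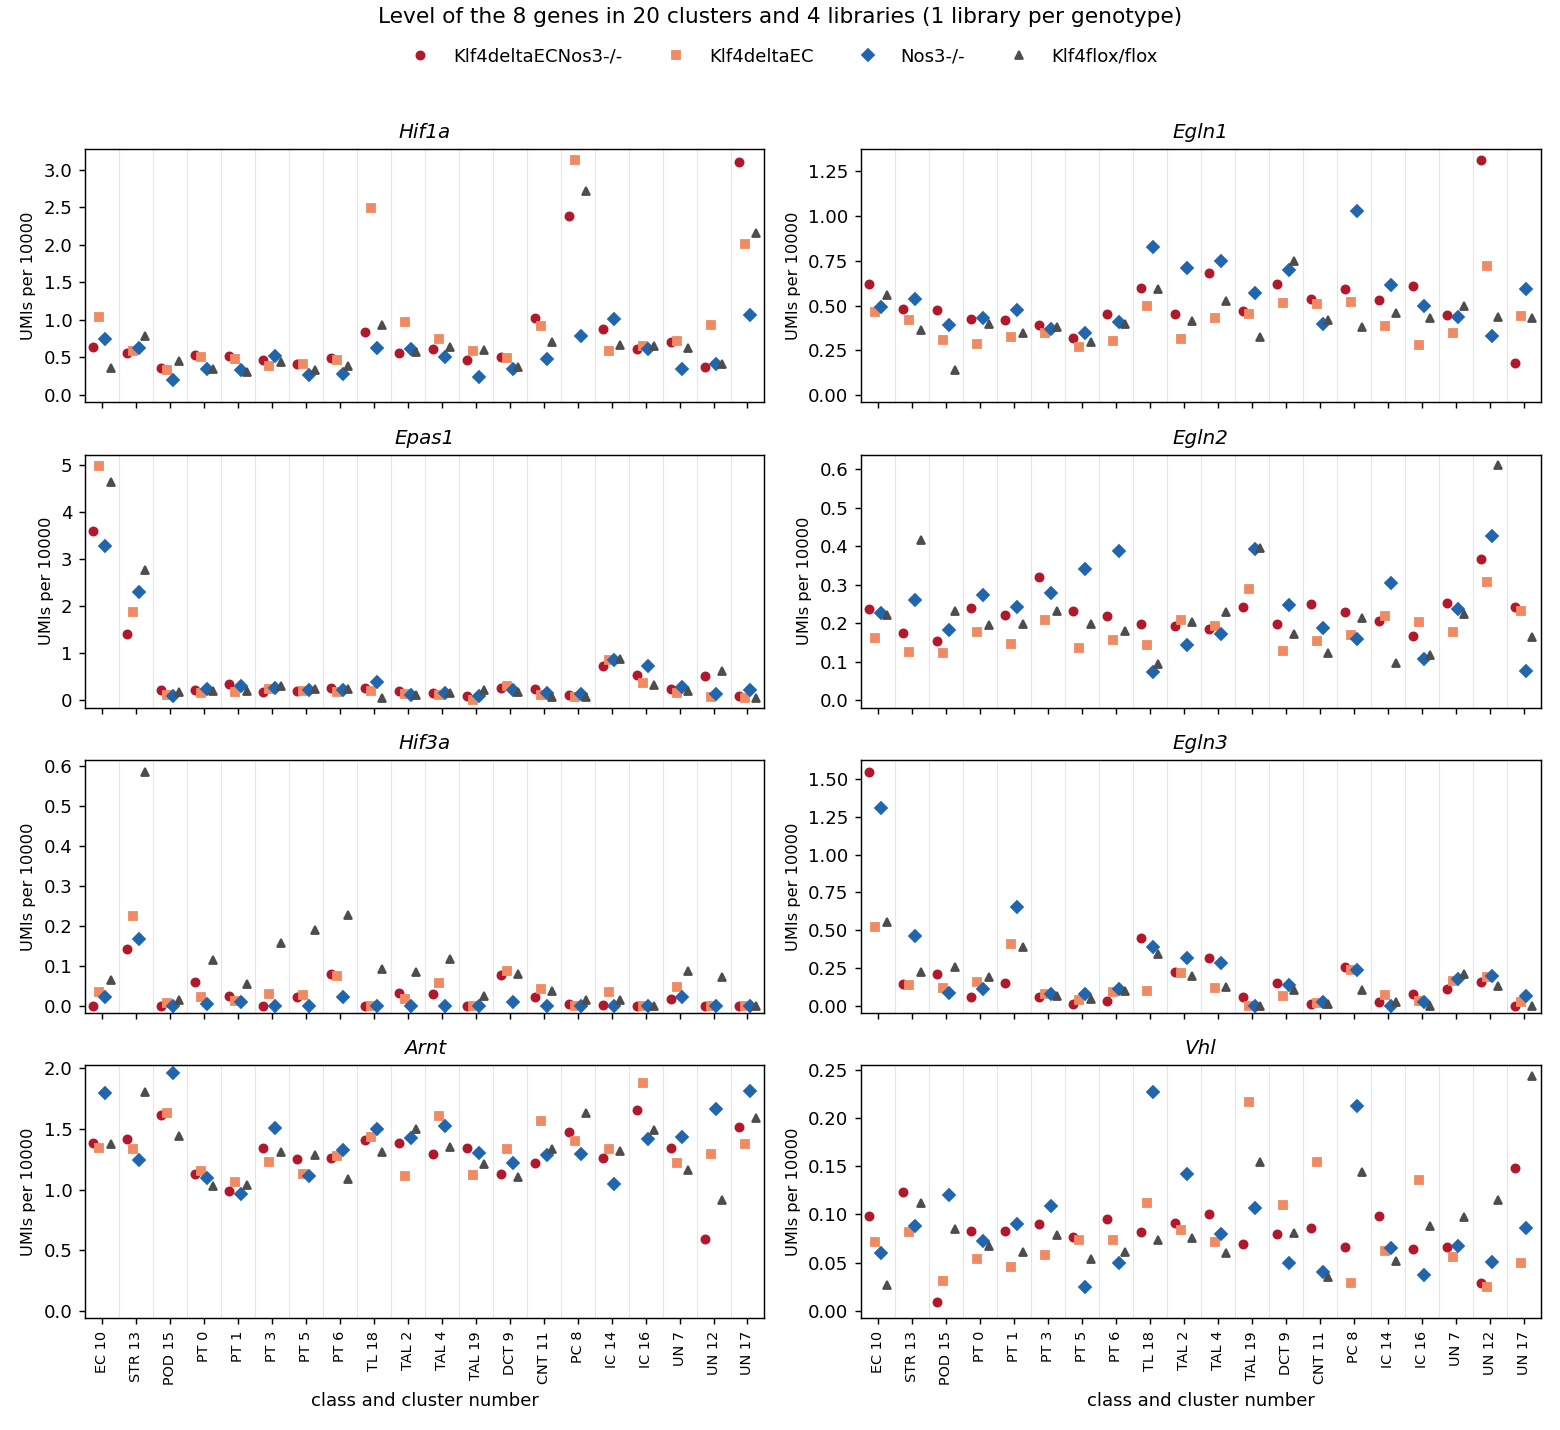
Level (UMIs per 10000, linear axes that differ between panels) of each of the 8 genes in 20 clusters, grouped by class, with 1 point per library. Classes are endothelial (EC), stromal (STR), podocyte (POD), proximal tubule (PT), thin limb (TL), thick ascending limb (TAL), distal convoluted tubule (DCT), connecting tubule (CNT), principal (PC) and intercalated (IC) cell-like and unnamed (UN); Epas1 reached 3.29 to 4.98 in EC 10, Hif1a 0.779 to 3.12 in PC 8, and Arnt 0.591 to 1.96 throughout.

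The ratio of Epas1 to Hif1a put the clusters in an order with the endothelium at one end and principal cell-like nuclei at the other. On the log2 scale with 0.1 added to each level, its median over libraries was 2.25 in endothelial cell-like nuclei and 1.62 in the stromal cell-like cluster. At the other end stood the principal cell-like cluster and cluster 17, each with a median of -3.86. Intercalated cell-like cluster 14 lay between them, at 0.06. In the principal cell-like cluster the library labelled Nos3-/- had -1.92, against -4.23 in Klf4deltaEC and -4.13 in Klf4flox/flox. The size of the ratio also depends on gene length and priming, so only its order across clusters is read.

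**Figure D2:**
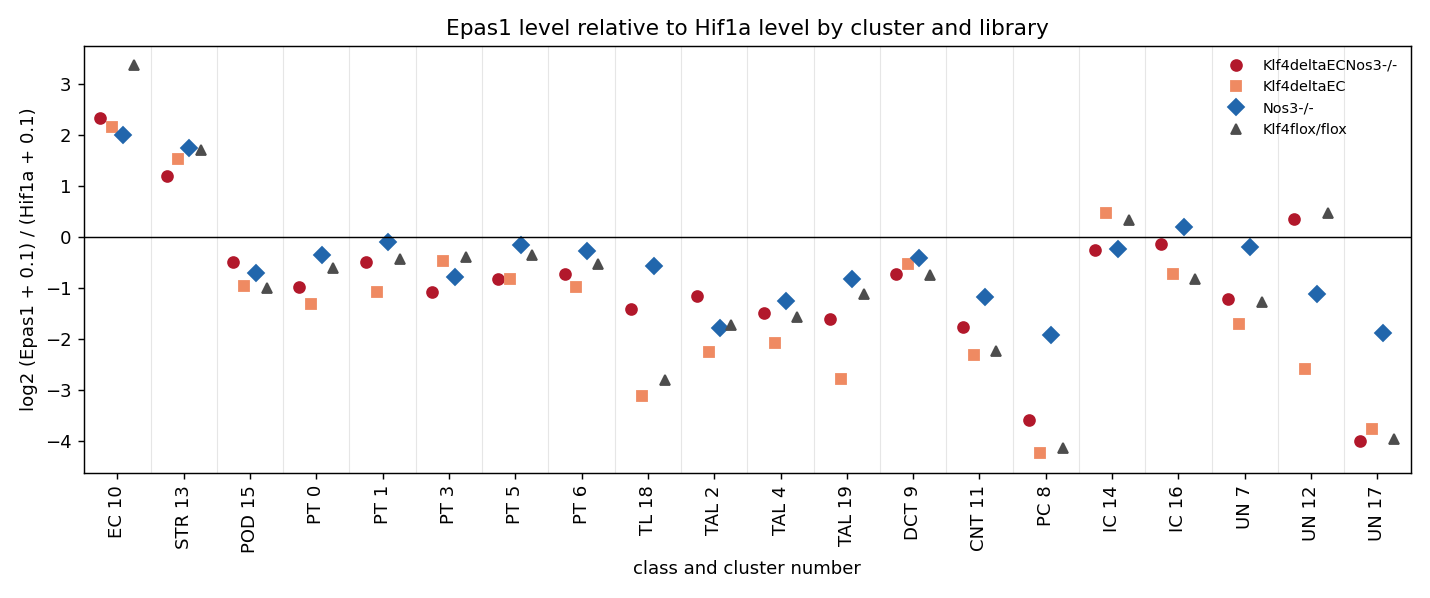
Log2 ratio of (Epas1 level + 0.1) to (Hif1a level + 0.1) per 10000 in 20 clusters, 1 point per library, with classes abbreviated by initials (EC endothelial, STR stromal, POD podocyte, PT proximal tubule, TL thin limb, TAL thick ascending limb, DCT distal convoluted tubule, CNT connecting tubule, PC principal, IC intercalated, UN unnamed). The ratio ran from 2.00 to 3.36 in EC 10, from 1.20 to 1.75 in STR 13 and from -4.23 to -1.92 in PC 8.

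Hif3a, an alpha subunit whose short forms can restrain the others, rested on few UMIs. Its highest cluster in every library was the stromal cell-like cluster 13, with 0.141 (0.0285 to 0.414), 0.225 (0.117 to 0.392), 0.167 (0.0697 to 0.335) and 0.586 (0.347 to 0.928) per 10000 in Klf4deltaECNos3-/-, Klf4deltaEC, Nos3-/- and Klf4flox/flox. The control library was above all 3 others. It was also the highest in 15 of the 20 clusters, among them proximal tubule-like cluster 5, where the libraries had 0.0224, 0.0266, 0 and 0.190. The median over 20 clusters was 0.00975, 0.0239, 0 and 0.0750 in the same order. The library labelled Nos3-/- was at 0 in 13 of 20 clusters and Klf4flox/flox in 2, at the depths given above.

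Arnt varied least. Its level over 80 columns had a median of 1.33 and ran from 0.591 to 1.96, and the lowest value came from the shallow cluster 12. Podocyte-like nuclei were the highest by median, with 1.62, 1.63, 1.96 and 1.44 in Klf4deltaECNos3-/-, Klf4deltaEC, Nos3-/- and Klf4flox/flox, and overlapped with intercalated cell-like cluster 16, which had 1.41 to 1.88.

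Among the hydroxylases, Egln3, which is strongly induced by hypoxia in many cells, had the strongest contrast between clusters. In endothelial cell-like nuclei it had 1.55 (1.16 to 2.03), 0.520 (0.323 to 0.792), 1.31 (0.984 to 1.71) and 0.557 (0.354 to 0.834) per 10000 in Klf4deltaECNos3-/-, Klf4deltaEC, Nos3-/- and Klf4flox/flox. Both libraries labelled Nos3-/- were high and both others low, and the intervals of the 2 pairs did not overlap. The endothelial level was the highest of the 20 clusters in all 4 libraries, at 3.46, 1.28, 2.01 and 1.44 times the next cluster in that order. The next cluster was proximal tubule-like cluster 1 except in Klf4deltaECNos3-/-, where it was the thin limb-like cluster. In cluster 1 Egln3 had 0.152 (0.115 to 0.197), 0.407 (0.345 to 0.478), 0.654 (0.548 to 0.774) and 0.388 (0.332 to 0.450). There the library labelled Nos3-/- was highest and Klf4deltaECNos3-/- lowest, so the 2 libraries labelled Nos3-/- stood at opposite ends. Thick ascending limb-like cluster 4 had 0.317, 0.119, 0.280 and 0.124, in the endothelial order at a lower level. Connecting tubule-like cluster 11 was among the lowest, with at most 0.0264.

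Egln1, the main oxygen sensor of the family, was found in every cluster and library among the 20 largest. Its median over 80 columns was 0.442 and its highest cluster by median was the distal convoluted tubule-like cluster 9, with 0.622, 0.515, 0.701 and 0.750 in Klf4deltaECNos3-/-, Klf4deltaEC, Nos3-/- and Klf4flox/flox, a range that overlapped with the next cluster. Cluster 12 was the highest in 2 of the libraries, on few UMIs. The principal cell-like cluster had 0.591 (0.447 to 0.766), 0.521 (0.381 to 0.694), 1.03 (0.695 to 1.47) and 0.379 (0.263 to 0.528). There the library labelled Nos3-/- was the highest and Klf4flox/flox the lowest. Across clusters, the library labelled Nos3-/- had the highest Egln1 level in 11 of 20 and Klf4deltaECNos3-/- in 7, and Klf4deltaEC had the lowest in 13. Klf4deltaEC also had the lowest Egln2 level in 11 of 20. Counts of this kind over all genes are not given here, for these or for the like counts of Hif1a and Hif3a. Endothelial cell-like nuclei had 0.620, 0.462, 0.489 and 0.561, which lay within one another's intervals.

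Egln2, a hydroxylase not known to be induced by hypoxia, and Vhl, the substrate-binding subunit of the ubiquitin ligase, were low in every cluster. Egln2 had a median of 0.204 over 80 columns, and its highest cluster in all 4 libraries was cluster 12, with 0.366, 0.308, 0.426 and 0.611 in Klf4deltaECNos3-/-, Klf4deltaEC, Nos3-/- and Klf4flox/flox. These values rest on few UMIs. Vhl had a median of 0.0771, with 0.0979, 0.0712, 0.0597 and 0.0270 in endothelial cell-like nuclei, and no cluster led in more than 2 libraries.

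The contrast of the highest cluster over the median cluster, on the log2 scale with 0.1 added, was 3.71 for Epas1, 2.14 for Egln3, 1.72 for Hif1a, 0.53 for Egln1 and 0.28 for Arnt. Over the 6972 genes at 0.5 or more in at least 1 cluster the median contrast was 1.19, with quartiles of 0.60 and 2.24. Epas1 was above the upper quartile, Egln3 and Hif1a between the median and the upper quartile, and Egln1 and Arnt below the lower quartile. Hif3a (1.58), Egln2 (0.80) and Vhl (0.41) did not reach 0.5 as a cluster mean.

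Between genes of the family, the closest pattern over the 20 cluster means was that of Hif1a and Vhl, with Pearson's r of 0.64, followed by Arnt against Egln2 at -0.49 and Epas1 with Egln3 at 0.49. These are descriptions over clusters that share libraries and depth. Among all genes entered, the 3 most like Epas1 were Slc43a3 (r = 0.94), Xdh (0.93) and Tgfb1 (0.91), each highest in endothelial cell-like nuclei. Those most like Hif1a were Morf4l2 (0.93), Dopey2 (0.91) and Kif26b (0.90). Egln3 was followed by H2-T23, Epha4 and Chrm3, with r of 0.81, 0.80 and 0.80. Arnt was followed by Pls3 (0.85), Fam172a (0.84) and Grk5 (0.84), and Egln1 by Sem1 (0.84), Arf3 (0.84) and Serbp1 (0.83). The low genes had Ntng1 (0.87), Hpse2 (0.80) and Kcnb2 (0.80) next to Hif3a, Rab18 (0.87), Nucks1 (0.84) and Mrpl18 (0.82) next to Egln2, and Cbx7 (0.81), Zfp808 (0.80) and Ttc23 (0.79) next to Vhl.

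Genotypes were compared by the log2 ratio of levels with 0.1 added, for genes at 0.5 or more in the higher library, with a ratio of at least 1 or at most -1 as the limit. Folds below are ratios of the levels themselves. A gene under 0.5 in the lower library entered through the higher one alone, which favours a large ratio. The shares of all genes were counted by the same rule. In endothelial cell-like nuclei Hif1a, Epas1, Arnt, Egln1 and Egln3 entered in every comparison and Hif3a, Egln2 and Vhl in none. The 5 comparisons share libraries, so their results are not independent of each other. With a pseudocount of 0.5 in place of 0.1, the endothelial ratios of Egln3 over Klf4flox/flox came to 0.96 in Klf4deltaECNos3-/- and 0.78 in Nos3-/-, and that of Hif1a to 0.84 in Klf4deltaEC, all within the limit.

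In Klf4deltaECNos3-/- against Klf4flox/flox, Egln3 had the largest ratio of the 5 endothelial genes. It was 2.79-fold higher in Klf4deltaECNos3-/- (1.68 to 4.76), with a log2 ratio of 1.33, and was the 1 gene of 5 past the limit, beside 4.4% of all 4586 genes entered. Hif1a was 1.75-fold (0.865 to 3.64) and Epas1 0.775-fold (0.613 to 0.977) the control level, both within the limit. Arnt and Egln1 had ratios of 0.01 and 0.12. Over clusters 0 to 19, 3 of 52 gene and cluster pairs of the family passed the limit, beside 4.98% of all pairs. The other 2 were Egln1 in cluster 12, at 1.31 in Klf4deltaECNos3-/- and 0.434 in Klf4flox/flox, and Hif3a in the stromal cell-like cluster, at 0.141 and 0.586. Each of these 2 entered through its higher library alone, which favours a large ratio, and the pairs of all genes entered by the same rule. The 1 control value of Hif3a gave a passing pair in every comparison with Klf4flox/flox, so those pairs are not separate results.

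Klf4deltaEC against Klf4flox/flox had endothelial Egln3 at 0.933-fold (0.494 to 1.75) and Epas1 at 1.07-fold (0.877 to 1.31) the control level. Hif1a was the 1 of 5 genes past the limit, beside 3.39% of 4371 genes. Hif1a entered through Klf4deltaEC alone, since its control level was under 0.5, which favours a large ratio. It had 1.04 (0.750 to 1.40) per 10000 in Klf4deltaEC and 0.361 (0.203 to 0.595) in Klf4flox/flox, a 2.87-fold difference (1.57 to 5.56). Klf4flox/flox was the lowest of the 4 libraries, and those labelled Nos3-/- lay between, at 0.633 and 0.746. Summed principal cell markers in endothelial cell-like nuclei were 1.23 in Klf4deltaEC and 1.34 in Klf4flox/flox, and the part of those cells in the result was not tested. In the family as a whole 4 of 48 pairs passed, beside 4.15% of all pairs. The others were Hif1a in the thin limb-like cluster, 2.68-fold (1.74 to 4.18) higher in Klf4deltaEC, Hif3a in the stromal cell-like cluster and Epas1 in cluster 12, both lower in Klf4deltaEC. In the thin limb-like cluster the summed principal cell markers, the cells with the highest Hif1a, were 0.955, 1.18, 0.240 and 0.908 in Klf4deltaECNos3-/-, Klf4deltaEC, Nos3-/- and Klf4flox/flox, against 26.3 to 39.6 in the principal cell-like cluster. The cluster's own thin limb markers summed to 34.0, 14.9, 3.25 and 18.9, and their part in the result was not tested.

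Nos3-/- against Klf4flox/flox differed more widely over all genes, with 13.8% of 4478 genes past the limit in endothelial cell-like nuclei. Egln3 was 2.36-fold higher in Nos3-/- (1.42 to 4.01) and was again the 1 of 5 past the limit. With the median of the other clusters subtracted it came to 0.89, within the limit, and Hif1a to 1.17, past it. Hif1a was 2.07-fold (1.08 to 4.12) the control level, with a log2 ratio of 0.88, and Epas1 0.709-fold (0.565 to 0.888). The 14 endothelial markers summed to 79.5 in Nos3-/- and 134.7 in Klf4flox/flox, beside 127.3 in Klf4deltaECNos3-/- and 153.0 in Klf4deltaEC, and their part in the lower Epas1 was not tested. Over clusters 0 to 19, 6 of 52 pairs of the family passed, beside 10.8% of all pairs. They comprised Hif1a in clusters 8 and 19, Epas1 in cluster 12 and Hif3a in cluster 13, all lower in Nos3-/-, and Egln1 in cluster 8 and Egln3 in the endothelium, both higher.

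Hif1a was lower in Nos3-/- than in Klf4flox/flox in 15 of the 20 largest clusters, and Nos3-/- was the lowest of the libraries in 12. How often other genes were lowest in this library, the shallowest, is not given here. The principal cell-like cluster held the largest Hif1a difference of this comparison, with 0.287-fold (0.178 to 0.442) the control level in Nos3-/-, a log2 ratio of -1.68. Egln1 went the other way, 2.72-fold higher (1.61 to 4.56), so that 2 of the 3 genes entered passed, beside 13.6% of 4347 genes. Egln1 entered through Nos3-/- alone, which favours a large ratio. Klf4deltaECNos3-/- against Nos3-/- had Hif1a 3.06-fold higher (1.98 to 4.94) in that cluster and Egln1 0.574-fold (0.362 to 0.925), with 1 of 3 genes past the limit beside 14.9% of 4504 genes. For Hif1a the library labelled Nos3-/- stood apart, since Klf4deltaECNos3-/- was at 0.879-fold (0.731 to 1.06) the Klf4flox/flox level. For Egln1 it did not, since Klf4deltaECNos3-/- was at 1.56-fold (1.00 to 2.45) the Klf4flox/flox level and its interval overlapped with that of Nos3-/-. In cluster 8 the library labelled Nos3-/- had 182 nuclei with a median of 1666 UMIs, against 297 to 347 nuclei and 2645 to 3529 UMIs in the others. Its summed principal cell markers were 26.3, against 39.6 in Klf4deltaECNos3-/-, 30.8 in Klf4deltaEC and 26.5 in Klf4flox/flox. The members of that list moved apart. Fxyd4 was 1.44 in Nos3-/- and 4.80 in Klf4flox/flox and Hsd11b2 1.43 and 3.06, both past the limit like Hif1a, whereas Aqp2 was 4.68 and 3.21 and Scnn1b 9.59 and 6.69. Its connecting tubule markers summed to 29.7, against 12.5 to 21.1 in the other 3 libraries. Slc8a1 carried that sum, at 27.6 in Nos3-/- and 18.1 in Klf4flox/flox, while Klk1 and S100g were lower in Nos3-/- past the limit and the median ratio of the 4 markers entered was -0.61. Its proximal tubule markers summed to 58.0, against 33.4 to 46.5. Connecting tubule-like and proximal tubule-like nuclei have less Hif1a than principal cell-like nuclei, and the part of these nuclei or of their free RNA in the result was not tested. Fewer nuclei of a type within the cluster and less RNA per nucleus cannot be told apart in these averages.

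**Figure D3:**
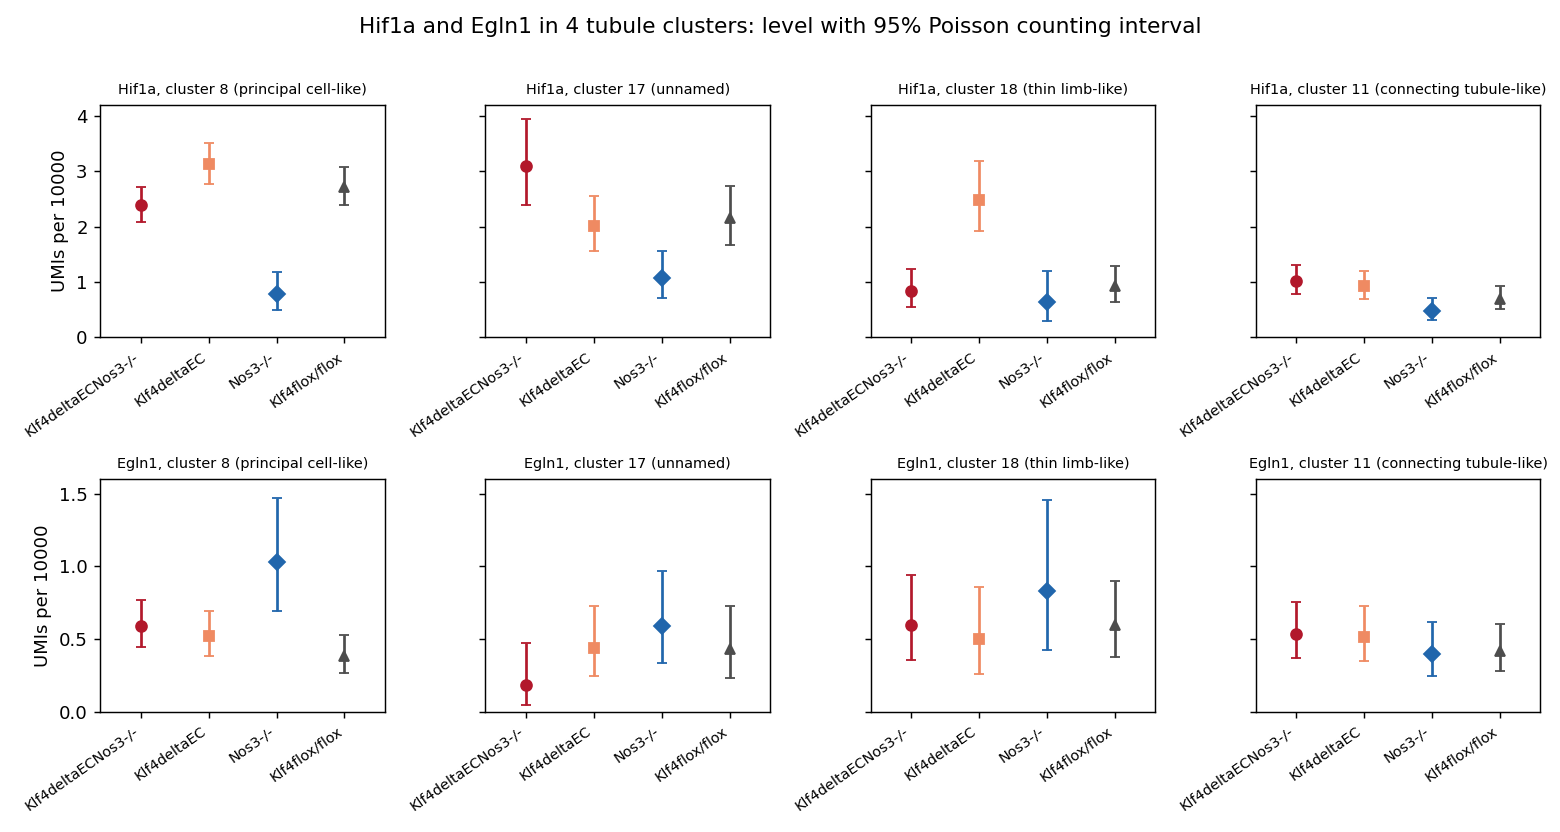
Level (UMIs per 10000) of Hif1a, above, and Egln1, below, in clusters 8, 17, 18 and 11, 1 point per library with its 95% Poisson counting interval. In cluster 8 the library labelled Nos3-/- had the lowest Hif1a (0.779) and the highest Egln1 (1.03), and in cluster 18 the library labelled Klf4deltaEC had the highest Hif1a (2.49).

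Klf4deltaECNos3-/- against Nos3-/- had none of the 5 endothelial genes past the limit, beside 17.9% of 4720 genes. Egln3 was 1.18-fold (0.792 to 1.77) the Nos3-/- level, Epas1 1.09-fold (0.848 to 1.41) and Hif1a 0.848-fold (0.464 to 1.53). Over clusters 0 to 19, 7 of 55 pairs passed, beside 13% of all pairs. Egln3 in proximal tubule-like cluster 1 was among them, at 0.232-fold (0.167 to 0.319), as were Hif1a in cluster 17, 2.89-fold higher (1.83 to 4.69), and Egln1 there, at 0.304-fold (0.0697 to 0.976). The Egln3 pair and this Egln1 pair entered through Nos3-/- alone, which favours a large ratio. Of the other 4, 1 was Hif1a in the principal cell-like cluster and 3 were Epas1, Arnt and Egln1 in the shallow cluster 12.

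Klf4deltaECNos3-/- against Klf4deltaEC had Egln3 2.99-fold higher (1.77 to 5.20) in the endothelium, the 1 of 5 genes past the limit beside 4.93% of 4526 genes. Epas1 was 0.723-fold (0.573 to 0.909) and Hif1a 0.610-fold (0.345 to 1.05) the Klf4deltaEC level. Over clusters 0 to 19, 5 of 51 pairs passed, beside 5.4% of all pairs. Cluster 12 gave 3 of these, Hif1a and Arnt lower and Epas1 higher in Klf4deltaECNos3-/-, and Hif1a in the thin limb-like cluster gave the fifth, at 0.338-fold (0.206 to 0.540).

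**Figure D4:**
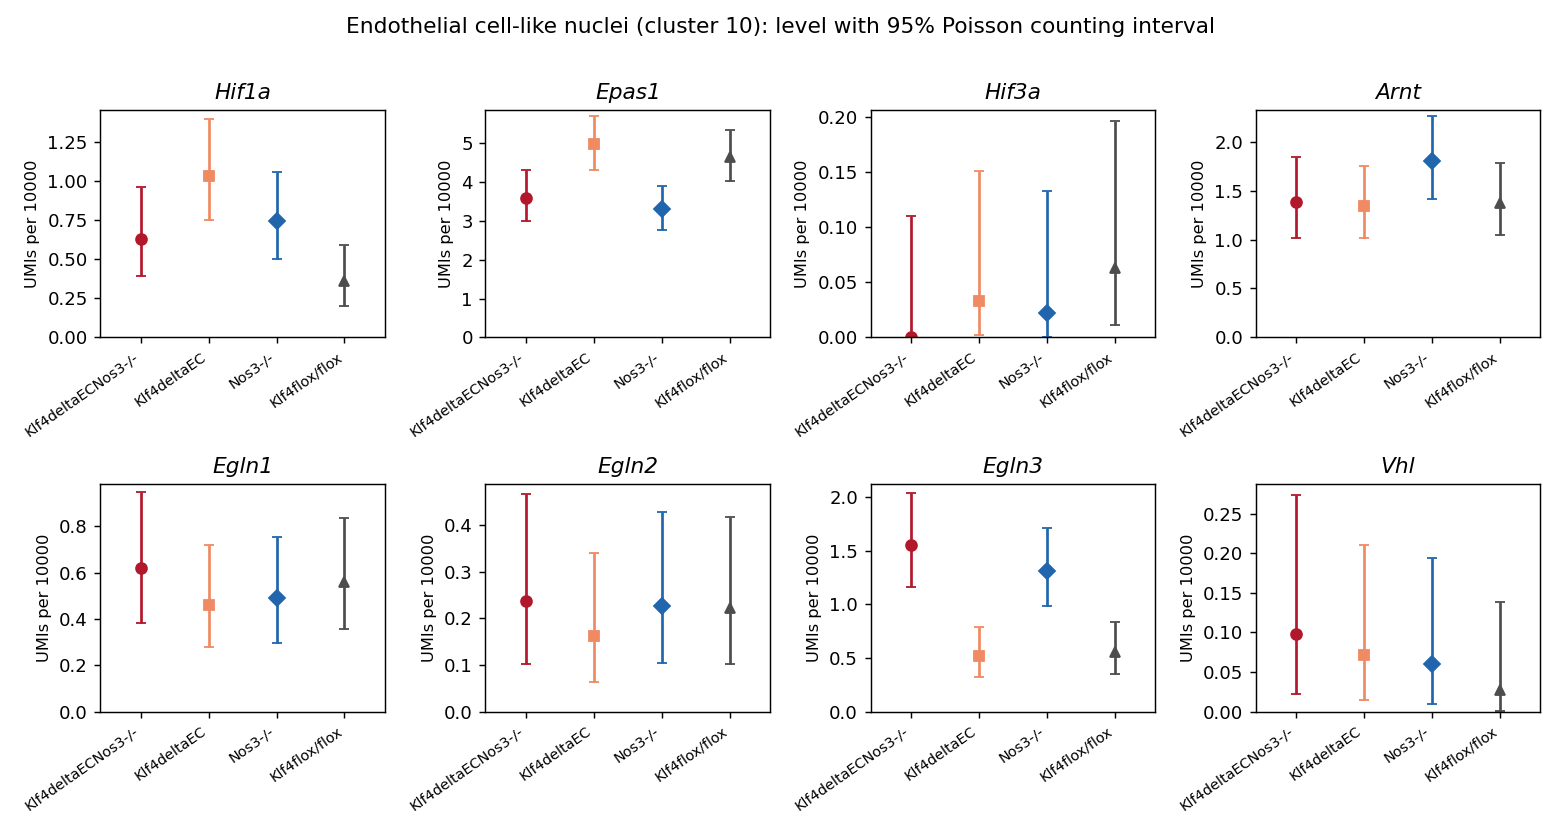
Level (UMIs per 10000, axes that differ between panels) of the 8 genes in endothelial cell-like nuclei, 1 point per library with its 95% Poisson counting interval. Egln3 was 1.55 and 1.31 in the libraries labelled Klf4deltaECNos3-/- and Nos3-/-, against 0.520 and 0.557 in Klf4deltaEC and Klf4flox/flox.

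Endothelial Egln3 was thus high in both libraries labelled Nos3-/- and low in both others, a pattern chosen for counting after the values were seen. Markers of the connecting tubule in these nuclei summed to 15.7, 13.6, 32.2 and 12.6 in Klf4deltaECNos3-/-, Klf4deltaEC, Nos3-/- and Klf4flox/flox, and Egln3 in the connecting tubule-like cluster itself was at most 0.0264. In Nos3-/- over Klf4flox/flox 2 of the 4 connecting tubule markers entered were past the limit higher and 2 lower, with Slc8a1 at 30.1 and 9.90. Markers of the distal convoluted tubule summed to 5.10, 5.87, 14.6 and 3.03 in the same 4 libraries, and all 4 entered were past the limit higher in Nos3-/- over Klf4flox/flox, with a median of 1.76. Egln3 in the distal convoluted tubule-like cluster was 9.75% to 18.3% of its endothelial level, and the part of these cells in the endothelial value was not tested. Markers of the proximal tubule summed to 66.7, 85.2, 74.7 and 73.6, but their members moved. In Nos3-/- over Klf4flox/flox 12 of 14 had a log2 ratio above 0, with 4 past the limit higher and 1 lower. The median was 0.57. In Klf4deltaECNos3-/- over Nos3-/- 12 were below 0, with 7 past the limit lower and 1 higher. The median was -1.09. Egln3 in proximal tubule-like cluster 1 was 9.79% to 78.4% of its endothelial level, and the part of these cells was not tested. The lower Egln3 value of the libraries labelled Nos3-/- exceeded the higher of the other 2 by a log2 ratio of 1.10. Of 5043 genes at 0.5 or more in at least 1 library, 3, Egln3 among them, had both libraries labelled Nos3-/- at least 2-fold above both others, which is 0.0595%. Another 6, or 0.119%, had them at least 2-fold below. A separation of any size between the 2 pairs was seen for 31.8% of these genes, Epas1 and Arnt included. Epas1 was lower in the libraries labelled Nos3-/-, by a log2 ratio of -0.36 between the closest libraries. For Arnt that ratio was 0.007, so its levels nearly met. Genes of endothelial subtypes, chosen after their values were seen, overlapped between the 2 pairs. Ehd3 of glomerular capillaries had 0.942, 0.682, 0.468 and 1.35 in Klf4deltaECNos3-/-, Klf4deltaEC, Nos3-/- and Klf4flox/flox, Plvap of peritubular capillaries 5.37, 2.46, 1.54 and 4.21, and Slc14a1 of the descending vasa recta 0.120, 0.210, 0.148 and 0.121. The arterial gene Sox17 had 0.628, 0.607, 0.295 and 0.758. The Slc14a1 values rest on few UMIs, and how the subtypes were divided among libraries was not tested.

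**Figure D5:**
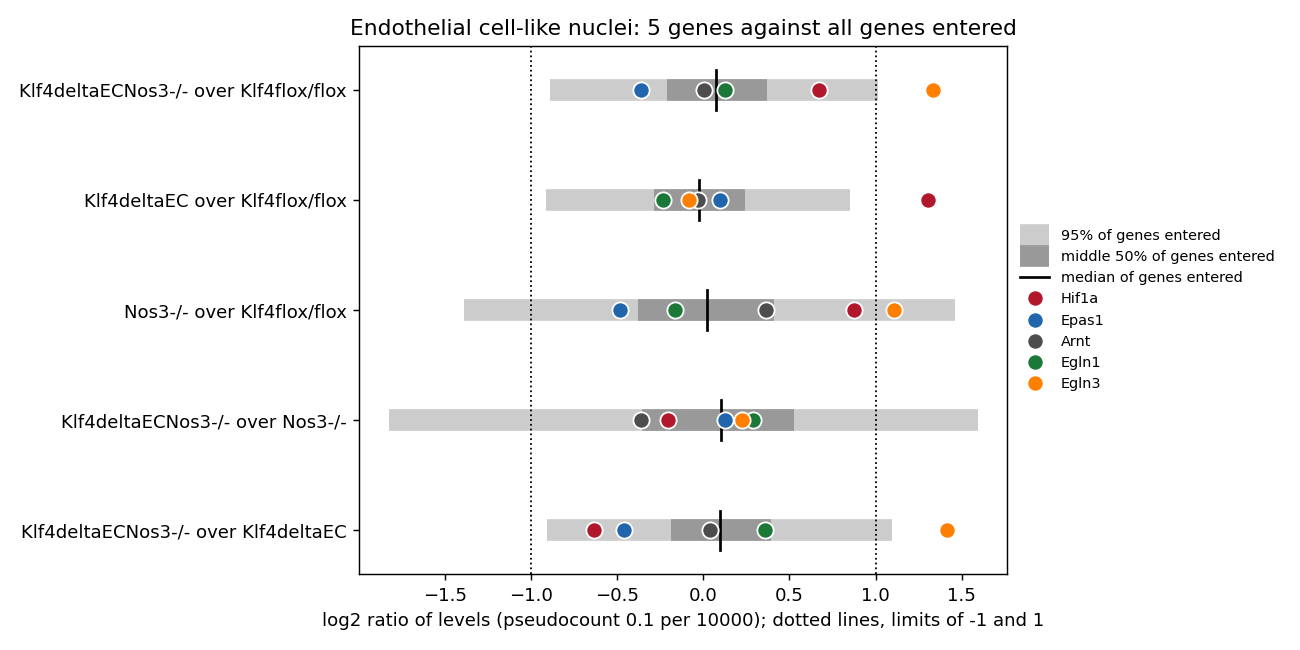
Log2 ratio (0.1 per 10000 added to each level) of 5 genes in endothelial cell-like nuclei in each comparison, over bars that give the middle 50% and 95% of all genes entered and a line at their median. Egln3 lay at 1.33, 1.10 and 1.41 in the comparisons of a library labelled Nos3-/- with one that is not, and at -0.08 and 0.23 in the other 2.

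Other genes of the pathway in endothelial cell-like nuclei were read from 4 lists: regulators of HIF (17 genes in the table), and genes induced by hypoxia in glycolysis (19), in vessels and red cell formation (14) and in other roles (26). In Klf4deltaECNos3-/- against Klf4flox/flox no listed gene passed the limit, beside 4.4% of all genes entered. Medians were 0.48 for 7 regulators entered, 0.08 for 8 glycolytic, 0.11 for 6 vascular and 0.59 for 6 other genes, beside 0.07 for all genes. Os9 (0.69) and Hsp90ab1 (0.67) were highest and Siah1a (0.19) and Cul2 (0.18) lowest among regulators. Tpi1 (0.67), Hk1 (0.35), Pfkfb3 (-0.35) and Pdk1 (-0.67) bounded the glycolytic list, Vegfa (0.38), Tek (0.16), Flt1 (-0.26) and Kdr (-0.70) the vascular list, and P4ha1 (0.66), Plod2 (0.64), Kdm3a (0.46) and Ndrg1 (-0.22) the rest.

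In Klf4deltaEC against Klf4flox/flox the 1 listed gene past the limit was Pdk1, a pyruvate dehydrogenase kinase, with -1.06, beside 3.39% of all genes entered. Medians were 0.19 for 5 regulators, -0.04 for 9 glycolytic, -0.04 for 6 vascular and 0.22 for 6 other genes, beside -0.03 for all genes. The ends of the lists were Siah1a (0.57), Hsp90ab1 (0.26), Ep300 (0.12) and Cul2 (0.08), then Pgk1 (0.76), Tpi1 (0.37) and Pkm (-0.58), then Flt1 (0.49), Tek (0.24), Kdr (-0.15) and Vegfa (-0.97), and P4ha1 (0.72), P4ha2 (0.35), Bnip3l (0.11) and Kdm3a (-0.27).

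Nos3-/- against Klf4flox/flox had listed genes past the limit in both directions, in the comparison where 13.8% of all genes passed it. Arnt2, a relative of Arnt (1.08), Car12, a carbonic anhydrase (1.45), and Mxi1, a Myc antagonist (1.10), were higher. Ldha, lactate dehydrogenase (-1.61), the VEGF receptor Kdr (-1.09), erythropoietin Epo (-1.43) and the histone demethylase Kdm3a (-1.09) were lower. Medians were -0.09 for 7 regulators, -0.51 for 7 glycolytic, -0.68 for 6 vascular and 0.56 for 9 other genes, beside 0.02 for all genes. The remaining ends were Rbx1 (0.40), Cul2 (-0.27) and Hsp90ab1 (-0.74), Gpi1 (0.24), Hk1 (0.02) and Aldoa (-0.74), Vegfa (0.53) and Pdgfb (-0.36), and Bnip3l (-0.22). Epo was near the same level in every cluster, with a highest cluster only 0.21 above the median cluster on the log2 scale. In the principal cell-like cluster Epo (-1.13) and Car12 (1.73) also passed the limit in the same direction, while Ldha (-0.14) and Kdm3a (-0.33) stayed within it. Car12 was highest in intercalated cell-like cluster 14 and Vegfa in podocyte-like nuclei, and the part of free RNA of those cells in the endothelial values was not tested.

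In Klf4deltaECNos3-/- against Nos3-/- the medians were 0.40 for 8 regulators, 0.57 for 7 glycolytic, 0.43 for 6 vascular and -0.47 for 10 other genes, beside 0.10 for all genes. The limit was passed by 17.9% of all 4720 genes entered. Past the limit and higher were Hsp90ab1 (1.42), Os9 (1.40), Ldha (1.95), Tpi1 (1.30), Epo (1.54) and Kdm3a (1.55), and past it and lower were Arnt2 (-1.07), Car12 (-1.45) and Ak4 (-2.02). Rbx1 (-0.15), Pfkfb3 (0.16), Gpi1 (-0.10), Tek (0.93), Flt1 (0.33), Vegfa (-0.16) and Bnip3l (0.81) were the other ends. Ldha (1.80), Epo (1.47), Kdm3a (1.18), Car12 (-1.96) and Ak4 (-1.73) passed the limit in the same direction in the principal cell-like cluster. Hsp90ab1 (0.06) did not pass it there. In Klf4deltaECNos3-/- against Klf4deltaEC Vegfa was the 1 listed gene past the limit, at 1.35, beside 4.93% of all genes entered. Medians were 0.34 for 7 regulators, 0.27 for 8 glycolytic, 0.02 for 6 vascular and 0.21 for 8 other genes, beside 0.10 for all genes. The ends were Rbx1 (0.66), Ep300 (0.49), Cul2 (0.10) and Siah1a (-0.38), Pkm (0.53), Hk1 (0.39), Pfkfb3 (-0.29) and Pgk1 (-0.51), Pdgfb (0.17), Kdr (-0.55) and Flt1 (-0.75), and Bhlhe40 (0.85), Kdm3a (0.73), Ndrg1 (-0.41) and P4ha2 (-0.45).

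In the 3 smallest clusters the family could be read only coarsely. Hif1a in macrophage-like nuclei, a cell type in which it drives the glycolytic response, had 0.728 (0.240 to 1.68), 1.42 (0.678 to 2.63), 0.344 (0.0384 to 1.28) and 0.914 (0.395 to 1.80) per 10000 in Klf4deltaECNos3-/-, Klf4deltaEC, Nos3-/- and Klf4flox/flox, with intervals that overlap. In urothelium-like nuclei it had 0.607, 0.844, 1.30 and 0.819, and the library labelled Nos3-/- rests there on about 3 UMIs. Egln3 was at 0 in cycling cell-like nuclei of 3 libraries, where the upper limit of the counting interval was 0.354 in Klf4deltaECNos3-/-, 0.561 in Klf4deltaEC and 0.391 in Klf4flox/flox.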

How the data were processed

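Cell Ranger, Seurat and mm10 were used, per the submitters' processing notes, without versions. The authors deposited 1 table of normalized signal for 23 clusters and 4 libraries, per the file headers. Each of 92 columns sums to 10000, so a value is a mean of UMIs per 10000 over nuclei. The sources used here do not say how nuclei were chosen or doublets treated.

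Nuclei numbers and depth were inferred from the table: a gene with 1 UMI has a value of 10000 divided by that nucleus's UMIs and by the number of nuclei. The number taken was the largest dividing at least 70% of the reciprocals of the lower values (tolerance 3e-14), and the procedure was tested on simulated data. Levels have exact Poisson and folds Clopper-Pearson 95% intervals on the effective UMIs, which assume that nuclei of a column share a profile. Log2 ratios use a pseudocount of 0.1 and understate the change of low genes.

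Clusters were named from the markers of 14 cell types where the mean scaled level was at least 0.4 and led by 0.4. Both limits were chosen with the values in view. Genes named from lists are the 2 highest and 2 lowest ratios per comparison, and the 3 genes most like each member. The members and lists were chosen with earlier results of these data known. Python 3.11.15, numpy 2.4.6, pandas 2.3.3 and scipy 1.17.1 were used.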

Additional observations from a re-analysis of the deposited data

Results flagged for a closer look

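Epas1 in the shallow, unnamed cluster 12 had opposite differences under the same change of label. Its levels were 0.508 (0.153 to 1.23) per 10000 in the library labelled Klf4deltaECNos3-/-, 0.0711 (0.00174 to 0.399) in Klf4deltaEC, 0.135 (0.0317 to 0.372) in Nos3-/- and 0.621 (0.242 to 1.30) in Klf4flox/flox. The log2 ratio was -2.08 for Klf4deltaEC over Klf4flox/flox and 1.37 for Klf4deltaECNos3-/- over Nos3-/-. It was -1.62 for Nos3-/- over Klf4flox/flox and 1.83 for Klf4deltaECNos3-/- over Klf4deltaEC. Each level rests on about 1 to 7 UMIs, each group is 1 library, and the difference between the effects was not tested.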

How the results depend on the processing

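No paired analysis was possible because each genotype has 1 library. No log2 ratio past the limit in endothelial cell-like nuclei changed sign under pseudocounts of 0.5 and 0.02, median-ratio rescaling or centring on the other clusters. With a pseudocount of 0.5 per 10000, Egln3 came to 0.96 in Klf4deltaECNos3-/- over Klf4flox/flox and 0.78 in Nos3-/- over Klf4flox/flox, and Hif1a to 0.84 in Klf4deltaEC over Klf4flox/flox. All 3 then lie inside the limit, which leaves 0 endothelial genes past it in these comparisons. Over clusters 0 to 19 that pseudocount left 0 pairs for Klf4deltaECNos3-/- over Klf4flox/flox, 1 for Klf4deltaEC over Klf4flox/flox, 1 for Nos3-/- over Klf4flox/flox, 3 for Klf4deltaECNos3-/- over Nos3-/- and 2 for Klf4deltaECNos3-/- over Klf4deltaEC. A pseudocount of 0.02 gave 2 endothelial genes in Nos3-/- over Klf4flox/flox, with Hif1a at 1.01. With no filter 7, 11 and 15 pairs passed in the 3 comparisons with Klf4flox/flox (Klf4deltaECNos3-/-, Klf4deltaEC, Nos3-/-). A filter at 1 per 10000 left 2 pairs for Klf4deltaEC and 3 for Nos3-/- over Klf4flox/flox, 4 for Klf4deltaECNos3-/- over Nos3-/- and 3 for Klf4deltaECNos3-/- over Klf4deltaEC. Leaving out cluster 12, chosen after seeing the data, left 4 for Klf4deltaECNos3-/- over Nos3-/- and 2 for Klf4deltaECNos3-/- over Klf4deltaEC. Centring on the median of the other clusters put Egln3 at 0.89 and Hif1a at 1.17 in Nos3-/- over Klf4flox/flox, which exchanges the gene past the limit, and Epas1 at -0.82 in Klf4deltaECNos3-/- over Klf4deltaEC. Without each library in turn, the highest cluster was 15 to 16 for Arnt, 9 to 12 for Egln1 and 17 to 19 for Vhl, and did not move for Hif1a, Epas1, Hif3a, Egln2 and Egln3. Of the 24 genes named as most like a member, 19 were no longer among its first 3 when r was taken over 80 cluster and library columns, where their r was 0.28 to 0.84. Depth limits Hif3a, Vhl and Egln2: in endothelial cell-like nuclei 3 UMIs equal 0.0893, 0.0729, 0.0737 and 0.0717 per 10000 in Klf4deltaECNos3-/-, Klf4deltaEC, Nos3-/- and Klf4flox/flox.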

Other observations

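The other genes that separated both libraries labelled Nos3-/- from both others by at least 2-fold in endothelial cell-like nuclei were few. Calb1, a calcium-binding protein of the connecting tubule, had 1.22, 0.363, 1.30 and 0.481 per 10000 in Klf4deltaECNos3-/-, Klf4deltaEC, Nos3-/- and Klf4flox/flox, and Gm10801 had 0.653, 0.275, 0.784 and 0.212. Lower in both libraries labelled Nos3-/- were Id1, a target of BMP signalling, with 0.341, 1.24, 0.335 and 1.07, Hes1, a Notch target, with 0.425, 0.998, 0.279 and 0.956, and Zbtb16, a zinc-finger factor, with 2.01, 5.82, 1.67 and 14.5. Xdh, xanthine dehydrogenase, had 1.23, 2.70, 0.507 and 2.64, Ccdc85a 2.08, 4.62, 1.22 and 5.72, and Gm12002 0.993, 3.55, 1.08 and 2.29. The same separation, of any size, was seen in 5 of the 19 other clusters for Egln3 and in 11 of 19 for Zbtb16. Egln3 was under 0.5 in every library of those 5 clusters, and in cluster 8 the closest libraries differed by a log2 ratio of 0.012. In proximal tubule-like cluster 0 Egln3 was separated the other way, at -0.30. Shares of all genes in these clusters are not given here. The genes of this paragraph were picked by the 2-fold rule after the values were seen, and no test was made.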
